A study of Mus musculus with 4 samples.

Results

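The 10 genes described here, Drosha, Dgcr8, Xpo5, Dicer1, Ago1, Ago2, Ago3, Tnrc6a, Tnrc6b and Tnrc6c, encode the core of the microRNA pathway. They were taken by name and function from a table of 53465 genes, with earlier results of these data known. Polyadenylated RNA was sequenced from cultures whose label is MLE-12, a line derived from an SV40 T antigen tumour of mouse lung that was made as a model of alveolar type 2 epithelium. Control cells (n = 2 libraries, replicates 1 and 2) were kept without 1-nitropyrene, a nitrated polycyclic hydrocarbon of diesel exhaust, and treated cells (n = 2 libraries, replicates 2 and 3) received it at 5 µM for 12 h. The comparison asks how the transcripts of the pathway differed between treated and control cells.

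MicroRNAs are made in steps. In the nucleus the Microprocessor, built from the ribonuclease Drosha and the RNA-binding protein Dgcr8, cuts hairpins out of primary transcripts. Exportin-5 (Xpo5) carries the hairpins to the cytoplasm, where the ribonuclease Dicer1 trims them to short duplexes. An Argonaute protein keeps a strand of the duplex as its guide, and a TNRC6 protein (also called GW182) bound to Argonaute recruits the deadenylases and decapping factors that silence the paired mRNA. In lung epithelium this pathway is known to be needed for normal development, through studies of Dicer1.

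The libraries held between 6908055 and 10773733 counts. Loci of ribosomal RNA took 44.3% to 46.1% of them. Of 21942 protein-coding genes, 12111 (55.2%) had no count in any library. The 79 genes matched by symbol as cytosolic ribosomal proteins held 0.341% to 0.387% of counts, and 9 of them were at 0. The labelled cell type was checked against its markers. All 10 general epithelial markers, E-cadherin, Epcam and keratins among them, were at 0 in all 4 libraries. Of 10 alveolar type 2 markers 6 were at 0, among them Sftpb and Nkx2-1, and the only ones with at least 10 counts in all were Etv5 and Abca3. Their summed level was 13.5 to 14.7 CPM in control and 14.3 to 14.9 CPM in treated libraries. Summed markers of fibroblasts (7 of 8 with a count) lay at 3.91 to 6.96 CPM in control and 1.05 to 1.48 CPM in treated libraries, and those of leukocytes and endothelium did not exceed 0.290 CPM in any library. Their part in the results below was not tested. In bulk RNA, fewer cells of a type and less RNA per cell cannot be told apart. The counts thus do not show the labelled epithelial identity, and names below refer to the loci as counted.

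Levels are CPM, read counts relative to library size after TMM scaling, unless they are given per kb of exon, which is the scale used to compare genes with each other. The marker levels above and the limit given for Ago1 are CPM of total counts without TMM scaling. Fold changes and Benjamini-Hochberg adjusted p-values come from edgeR's quasi-likelihood test on 7738 genes, and a gene with an adjusted p under 0.05 is said to have risen or fallen. Nothing in the labels says that replicates were grown separately, so the p-values measure a spread that may be technical, and that spread was pooled over all genes.

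Both Microprocessor genes rose with 1-nitropyrene, by 1.29-fold for Drosha and 1.21-fold for Dgcr8, while 2 of the 3 TNRC6 genes fell, Tnrc6c to 0.75 and Tnrc6b to 0.815 of control. Xpo5, Dicer1, Ago2, Ago3 and Tnrc6a did not pass the test. Ago1 had no count in any library and could not be tested. In all, 4 of the 9 tested members were called, beside 24.5% of all tested genes, or 34.3% of those averaging 10 CPM or more. The 2 members that rose stand beside 13.2% of tested genes that rose, and the 2 that fell beside 11.2%. In 7 of the 9 tested members the treated and control libraries did not overlap (3 above and 4 below control), beside 59.2% of tested genes. The median log2 fold change was -0.06 over the members and -0.00 over all tested genes.

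**Figure D1:**
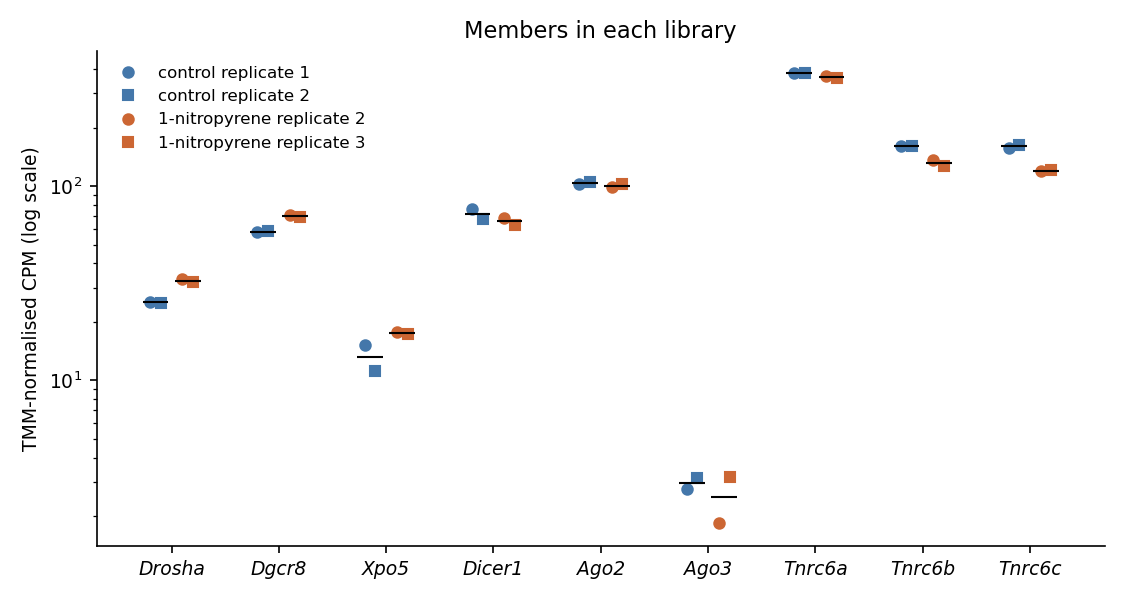
TMM-normalised CPM (log axis) of the 9 members with counts, 1 point per library and a black line at each group mean (n = 2). Drosha and Dgcr8 lie higher and Tnrc6b and Tnrc6c lower in both treated libraries, and Ago3, at 1.84 to 3.17 CPM, is the only plotted member under 10 CPM. Ago1 had 0 counts and is not drawn.

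Drosha (ENSMUSG00000022191, GRCm38 chromosome 15, 12824815 to 12935291) encodes the nuclease that makes the cut. It was at 25.4 and 25.1 CPM in control replicates 1 and 2, and at 33.4 and 32.0 CPM in 1-nitropyrene replicates 2 and 3. The controls lay close together and both treated libraries stood above them. The log2 fold change was 0.37 (SE 0.11, edgeR adjusted p = 0.00716), with a 95% interval of 1.11 to 1.51 for the ratio of treated to control. The call rested on few counts, between 175 and 290 per library. It was lost in DESeq2 (adjusted p = 0.129) and in edgeR's test against a 1.2-fold change (adjusted p = 0.392). It was also lost in edgeR without control replicate 1, control replicate 2 or 1-nitropyrene replicate 2, with log2 fold changes of 0.38, 0.36 and 0.34. Over 17 alternative settings the adjusted p ran from 0.00666 to 0.392, with the log2 fold change between 0.34 and 0.40.

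Dgcr8 (ENSMUSG00000022718, chromosome 16, 18253948 to 18289246) encodes the partner that recognises the hairpin. It was at 57.8 and 58.8 CPM in control replicates 1 and 2, and at 71.3 and 69.3 CPM in 1-nitropyrene replicates 2 and 3. As for Drosha, the groups did not overlap and the replicates of each group lay close together. Its log2 fold change was 0.27 (SE 0.08, edgeR adjusted p = 0.00271), with an interval of the ratio from 1.09 to 1.34. The call was lost in DESeq2 (adjusted p = 0.0923) and in edgeR's test against a 1.2-fold change (adjusted p = 0.722). It was also lost in edgeR without control replicate 1, where the log2 fold change was 0.26. Over the 17 settings the adjusted p ran from 0.00255 to 0.722. Exons of Dgcr8 share 825 bp with Trmt2a on the opposite strand and 327 bp with Gm49776 on the same strand. Trmt2a held 74 counts over the 4 libraries and Dgcr8 held 2248, while Gm49776 is not among the counted genes. How reads in shared exons were counted is not given, and the part of these overlaps in the change of Dgcr8 was not tested.

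Dgcr8 mRNA is itself a substrate of the Microprocessor, which is known to cut hairpins in its own partner's transcript. The annotation places hairpin genes inside exons of Dgcr8, and their mature microRNAs are shown here because they lie within a transcript whose count changed. Sequences are from RefSeq on GRCm38.p6, 5′ to 3′, with the seed (bases 2 to 8, which pair with targets) in capitals. The 4 arms have 4 different seeds. The arms of miR-1306 lie within the coding sequence of Dgcr8, at chr16:18284248-18284268 (3p) and chr16:18284288-18284310 (5p) on the minus strand, and those of miR-3618 in an exon outside it, at chr16:18284562-18284583 (3p) and chr16:18284602-18284623 (5p).
mmu-miR-1306-5p: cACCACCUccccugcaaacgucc
mmu-miR-1306-3p: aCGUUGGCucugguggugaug
mmu-miR-3618-5p: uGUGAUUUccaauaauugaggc
mmu-miR-3618-3p: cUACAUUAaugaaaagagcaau
The table rows of both hairpins (Mir1306 and Gm24572) held 0 counts in all 4 libraries, beside 410 to 628 counts for Dgcr8. The same held for the hairpin genes annotated in exons of Drosha (Gm47288) and of Tnrc6b (Mir5113), each at 0 in all 4 libraries. A read over such a hairpin also lies in an exon of the member, and how such reads were counted is not given. The 0 thus does not show how much RNA covered the hairpins. The hairpin rows count fragments of long polyadenylated RNA and do not measure mature microRNAs.

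The rises of Drosha and Dgcr8 did not differ from each other beyond their errors. The difference of their log2 fold changes was 0.10 (95% interval -0.17 to 0.37). Summed over both genes, the Microprocessor stood at 83.2 and 83.8 CPM in the controls, and treated libraries stood at 105 and 101 CPM. Likewise, the change of Xpo5, described next, differed from that of Drosha by -0.01 (-0.39 to 0.37). Such differences were taken for 8 pairs of genes, with no p. Per kb of exon, Drosha was at 0.57 and 0.553 of the level of Dgcr8 in the controls, and treated libraries stood at 0.607 and 0.598.

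Exportin-5 and Dicer, which act after the Microprocessor, were not called. Xpo5 (chromosome 17, 46202782 to 46243598) was at 15.3 and 11.2 CPM in control replicates 1 and 2, and at 17.7 and 17.4 CPM in 1-nitropyrene replicates 2 and 3. Both treated libraries lay above both controls, but the controls were far apart, with 166 and 78 counts. Its log2 fold change of 0.36 (SE 0.16, edgeR adjusted p = 0.0738) was as large as that of Drosha, and its ratio had an interval of 1.04 to 1.59. It was 0.65 without control replicate 1 (edgeR adjusted p = 0.0305) and 0.20 without control replicate 2 (0.514), so the size for Xpo5 turned on which control was kept. In the 17 settings the adjusted p ran from 0.0305 to 0.515.

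Dicer1 (ENSMUSG00000041415, chromosome 12, 104687742 to 104751952) leaned the other way. It was at 76.6 and 67.9 CPM in the controls, and treated libraries stood at 68.2 and 63.5 CPM. Control replicate 2 and 1-nitropyrene replicate 2 were nearly level, so the groups overlapped. Its log2 fold change was -0.15 (SE 0.07, edgeR adjusted p = 0.134), with an interval of the ratio from 0.816 to 0.998. It shrank to -0.05 without control replicate 1.

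The change of the Microprocessor genes differed from that of Dicer1. The log2 fold change of Drosha exceeded that of Dicer1 by 0.52 (95% interval 0.25 to 0.79) and that of Dgcr8 exceeded it by 0.42 (0.21 to 0.63). Per kb of exon, Drosha stood at 0.935 and 1.04 times the level of Dicer1 in the controls, and treated libraries stood at 1.38 and 1.42 times. Dgcr8 stood at 1.64 and 1.88 times against 2.28 and 2.38 times. Both ratios were higher in each treated library than in each control library.

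**Figure D2:**
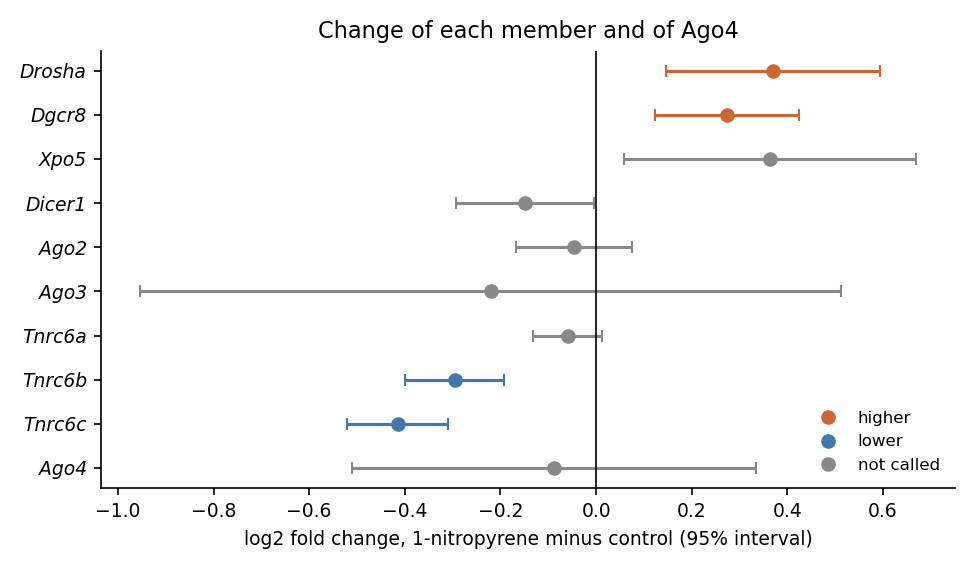
Log2 fold change (1-nitropyrene minus control) of the 9 tested members and of Ago4, with 95% intervals from the standard errors of the edgeR fit. Drosha and Dgcr8 (orange) rose, Tnrc6b and Tnrc6c (blue) fell, and the grey genes were not called; the interval of Ago3 is the widest.

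Among the Argonautes nearly all counts belonged to Ago2, the member of the family that can cut its target. Ago2 (ENSMUSG00000036698, chromosome 15, 73095844 to 73184935) was at 103 and 105 CPM in the controls, and treated libraries stood at 99.03 and 102.5 CPM. Both treated libraries lay below both controls, by a margin smaller than the distance between replicates. The log2 fold change was -0.05 (SE 0.06, edgeR adjusted p = 0.644), with a ratio whose interval, 0.891 to 1.05, does not reach the ratios of Drosha (1.29) or Tnrc6c (0.75). An exon of Ago2 shares 219 bp with Chrac1 on the opposite strand, which held 35 counts in all.

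Ago1, Ago3 and Ago4 lie side by side on chromosome 4 (126331704 to 126533472), and all of them were low. Ago3 had 30 and 22 counts without and 16 and 27 with 1-nitropyrene, which is 2.76 and 3.15 CPM against 1.84 and 3.17 CPM. The groups overlapped (log2 fold change -0.22, SE 0.37, edgeR adjusted p = 0.728), and an interval of the ratio from 0.516 to 1.43 shows that a change could not be resolved at this depth. Ago4, which was not among the 10 genes, was at 7.91 and 9.32 CPM in the controls, and treated libraries stood at 7.25 and 8.70 CPM (log2 fold change -0.09, SE 0.22, edgeR adjusted p = 0.821).

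Ago1 (ENSMUSG00000041530, chromosome 4, 126435012 to 126468583) had 0 counts in each of the 4 libraries. With 3 counts as the limit that a count of 0 allows, its level was under 0.278 to 0.434 CPM, depending on the library. Per kb of exon Ago2 was at least 142-fold higher than Ago1 in control replicate 2, the shallowest library, and at least 216-fold higher in control replicate 1. Such limits cover counting error only and hold for these deposited counts. Ago1 is among the 55.2% of protein-coding genes at 0 here, and whether its 0 reflects its level in the cells was not tested. The exons of Ago1 overlap no other annotated gene.

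Shares of the Argonaute family, taken per kb of exon within each library, overlapped between treated and control libraries for each gene. Ago2 held 84.9% and 83.1% in the controls against 85.9% and 83.5% in the treated libraries. Ago4 held 13.2% and 14.8% against 12.7% and 14.3%, and Ago3 held between 1.35% and 2.19%.

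The TNRC6 proteins carry repeats of glycine and tryptophan that bind Argonaute and the deadenylase complexes. Tnrc6c (ENSMUSG00000025571, chromosome 11, 117654289 to 117763439) was at 158 and 162 CPM in control replicates 1 and 2, and at 119 and 121 CPM in 1-nitropyrene replicates 2 and 3. The groups were far apart relative to the distance between replicates. Its log2 fold change of -0.41 (SE 0.05, edgeR adjusted p = 7.86e-13) had the smallest p of the members, and its ratio had an interval of 0.697 to 0.807. Tnrc6c was called in all 17 alternative settings (adjusted p from 1.25e-14 to 0.0132), including DESeq2 and each library left out.

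Tnrc6b (ENSMUSG00000047888, chromosome 15, 80711313 to 80941085) was at 162 and 161 CPM in the controls, and treated libraries stood at 136 and 127 CPM. Here the treated replicates were further apart than the controls, and both were below them. The log2 fold change was -0.30 (SE 0.05, edgeR adjusted p = 4.76e-07), with an interval of the ratio from 0.758 to 0.876. It was called in 16 of 17 settings, with the exception of the test against a 1.2-fold change (adjusted p = 0.521).

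Tnrc6a (ENSMUSG00000052707, chromosome 7, 123123885 to 123195296) was the most abundant of the 10 genes. It was at 381 and 381 CPM in the controls, and treated libraries stood at 371 and 361 CPM. Both treated libraries were slightly lower (log2 fold change -0.06, SE 0.04, edgeR adjusted p = 0.255), with an interval of 0.913 to 1.01 for the ratio.

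The paralogues changed to unequal degrees. Tnrc6c changed by -0.36 (95% interval -0.48 to -0.23) and Tnrc6b by -0.24 (-0.36 to -0.11) relative to Tnrc6a on the log2 scale. Between Tnrc6c and Tnrc6b the difference was -0.12, with an interval from -0.27 to 0.03 that includes 0. Without 1-nitropyrene replicate 3 it was -0.17 and its interval did not include 0, and without 1-nitropyrene replicate 2 it was -0.060. Per kb of exon, Tnrc6a made up 61.1% and 60.7% of the family in the controls against 66.0% and 65.8% in the treated libraries. Tnrc6c made up 25.3% ± 0.424 against 21.4% ± 0.566 (SD, n = 2), and Tnrc6b 13.9% and 13.7% against 13.0% and 12.4%. With 2 libraries in each group an exact permutation test of a share cannot reach a p under 0.05, so none is given. The summed TNRC6 counts were at 701 and 704 CPM in the controls, and treated libraries stood at 625 and 608 CPM.

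**Figure D3:**
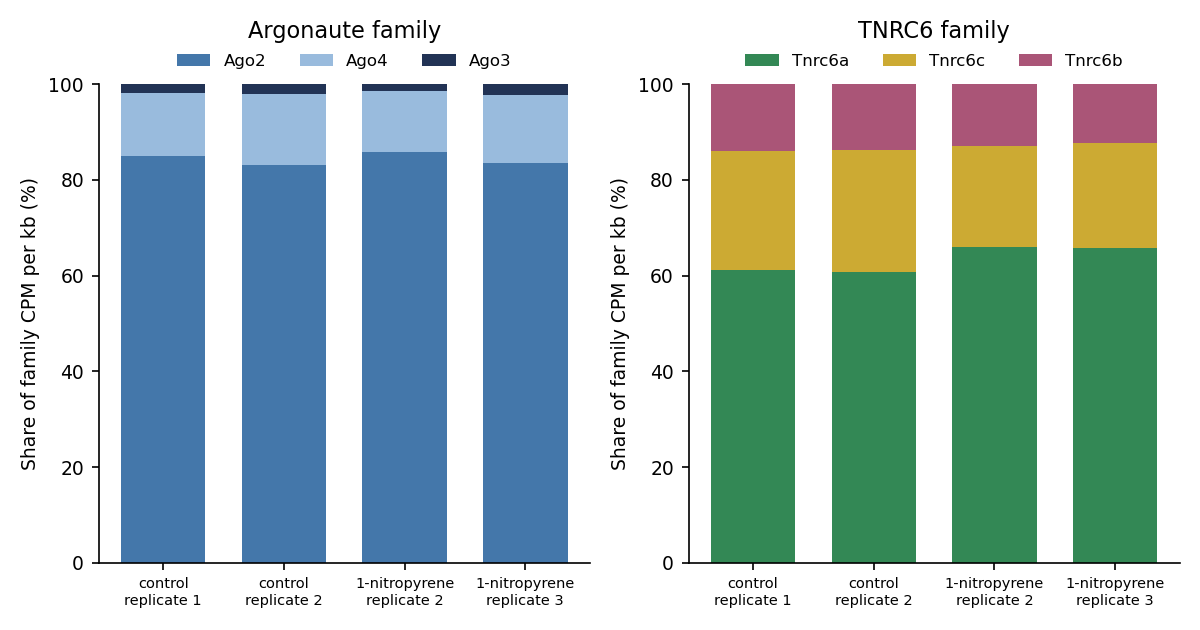
Share of the family's CPM per kb of exon (%) held by each paralogue, 1 stacked bar per library; Ago1 had no counts. The Argonaute bars are alike in all libraries, while the Tnrc6a part of the TNRC6 bars is larger in both treated libraries (66.0% and 65.8%) than in both controls (61.1% and 60.7%).

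The 250 bases before the start of Tnrc6b and of Tnrc6c are shown because these are the called members whose window overlaps no annotated exon. The windows of Drosha and Dgcr8, the members that rose, overlap an annotated exon and are not shown. The sequences are from RefSeq (GRCm38.p6), plus strand, at chr15:80711063-80711312 for Tnrc6b and chr11:117654039-117654288 for Tnrc6c. Capitals mark CCAAT, the box bound by the factor NF-Y, and GCGTG, the core of the site bound by the Ah receptor, a sensor of polycyclic hydrocarbons, on either strand. Of 8 motifs searched on both strands, these were marked after the matches were seen. The others were the GC box (GGGCGG, in 32.7% of all windows), the ETS site (CCGGAAG, 6.91%), the E-box (CACGTG, 6.02%) and the sites named CRE (1.55%), E2F (1.86%) and NRF1 (0.782%).
Tnrc6b: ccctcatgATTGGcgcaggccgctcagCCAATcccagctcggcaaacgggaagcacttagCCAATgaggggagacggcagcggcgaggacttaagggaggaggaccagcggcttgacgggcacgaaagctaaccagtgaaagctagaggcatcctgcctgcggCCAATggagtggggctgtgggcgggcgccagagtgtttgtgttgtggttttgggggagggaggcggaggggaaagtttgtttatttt
Tnrc6c: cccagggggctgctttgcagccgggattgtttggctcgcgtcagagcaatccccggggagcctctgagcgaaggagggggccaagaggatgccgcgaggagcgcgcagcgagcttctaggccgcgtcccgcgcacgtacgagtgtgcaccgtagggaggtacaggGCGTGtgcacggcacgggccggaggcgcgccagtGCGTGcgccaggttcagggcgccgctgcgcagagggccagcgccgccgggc
The Tnrc6b window held 4 copies of CCAAT and no GCGTG, and the Tnrc6c window held 2 copies of GCGTG and no CCAAT. Of 32851 mouse promoter windows of the same length, 2.79% held at least 3 copies of CCAAT and 8.63% at least 2 copies of GCGTG. Of the 9 members with a promoter window in the table, Dgcr8 had 4 copies of CCAAT and Drosha 3, so that 3 members, 2 that rose and 1 that fell, shared this feature. Of the other motifs, the GC box was found in 6 of the 9, ETS in 2 and NRF1 in 1, and the E-box, CRE and E2F in 0. At least 1 GCGTG was present in 4 of the 9 (Drosha, Xpo5, Tnrc6a and Tnrc6c), beside 28.2% of all windows, and at least 1 CCAAT in 5 of the 9, beside 33.8%. The cuts of 3 and 2 copies were set after the matches were seen. GCGTG itself contains a CpG, a C followed by a G. The Tnrc6c window held 31 CpG, and 5.19% of all windows held as many or more, beside a median of 6. The Tnrc6b window held 14 CpG (29.4%). The motif shares were not taken among windows of like CpG content. A match is a stretch of letters and does not show that a factor binds there.

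Compared per kb of exon, the members spanned a wide range in control cells. Tnrc6a led at 30.0 ± 0.0225 CPM per kb (SD, n = 2), followed by Tnrc6c at 12.5 ± 0.224. Dgcr8 (7.57 ± 0.0917) and Ago2 (7.43 ± 0.117) overlapped, Tnrc6b followed at 6.80 ± 0.0298, and Dicer1 (4.32 ± 0.367) and Drosha (4.25 ± 0.0364) overlapped. Xpo5 was at 1.93 ± 0.422 and Ago3 at 0.178 ± 0.0168 CPM per kb. In treated cells the order by exon length changed in a single place. Drosha, at 5.50 ± 0.165 CPM per kb, passed Dicer1, at 3.93 ± 0.200, and overlapped with Tnrc6b at 5.54 ± 0.263. Dgcr8 (9.14 ± 0.181) moved close to Tnrc6c (9.33 ± 0.0784) without overlap. The ranks between Tnrc6a and Drosha depended on the length used: per kb of coding sequence, Ago2 was the second gene in control cells, at 40.4 ± 0.637 CPM per kb, behind Tnrc6a at 64.6 ± 0.0485. The change of order also depended on it. By coding length Drosha stayed below Dicer1, at 6.13 and 12.6 CPM per kb in control and 7.93 and 11.5 in treated cells. Dgcr8 instead passed Tnrc6b and Tnrc6c. By longest transcript Drosha passed Dicer1, and Dgcr8 passed Tnrc6c. Tnrc6a stayed first and Xpo5, Ago3 and Ago1 last by exon, coding and longest-transcript length.

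Of 4698 other genes averaging at least 10 CPM, those whose log2 levels followed Tnrc6c most closely over the 4 libraries were Abhd4, Ier5l and Ift122, at Euclidean distances of 0.0168, 0.0237 and 0.0357 on the log2 scale. Abhd4 was at 72.9 and 74.8 CPM in the controls, and treated libraries stood at 55.8 and 55.8 CPM. The likeness is over 4 libraries only and is a description.

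**Figure D4:**
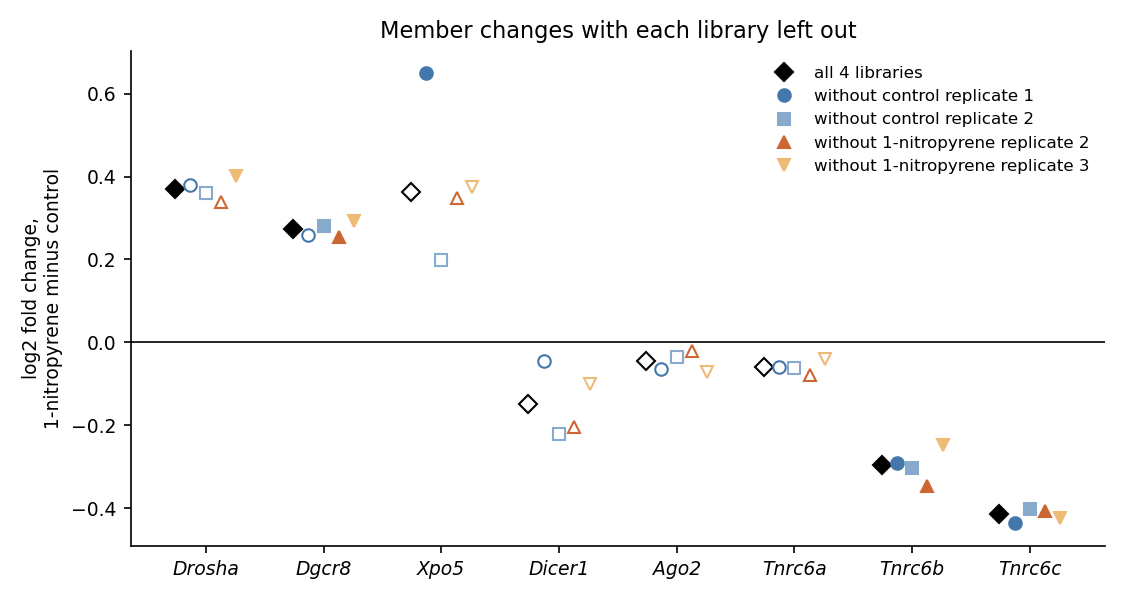
Log2 fold change (1-nitropyrene minus control) of 8 members with all 4 libraries and with each library left out; filled symbols have an edgeR adjusted p under 0.05. Tnrc6b and Tnrc6c are filled throughout, Drosha is open in 3 of its 4 left-out fits, and Xpo5 ranges from 0.20 to 0.65.

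The wider pathway was described with 91 other genes in 5 lists, of which 81 were tested. Of these 25 rose and 6 fell, so that 38.3% were called, beside 24.5% of all tested genes. The lists were chosen with earlier results of these data known, so the shares are a description only. Among genes averaging 10 CPM or more the shares were 41.1% (30 of 73) and 34.3%. Without scaling factors 21 rose and 9 fell, and the balance over all tested genes turned, from 1024 higher and 870 lower to 868 higher and 1017 lower. Exons of 12 of the 31 called genes overlap an antisense gene, and whether strand was used in counting is not given here. The median log2 fold changes of the lists lay between 0.00 and 0.15.

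Of 17 tested partners of the Microprocessor, 35.3% were called, beside 24.5% of all tested genes, or 34.3% of those averaging 10 CPM or more. Among the partners 5 rose and 1 fell (median log2 fold change 0.07). Those that rose included Srrt (ARS2), which links the cap-binding complex to primary microRNA transcripts, from 54.0 ± 3.39 to 73.7 ± 3.67 CPM (log2 fold change 0.44, SE 0.08). Tardbp (TDP-43), an RNA-binding protein found with Drosha, rose from 339 ± 7.15 to 437 ± 9.79 CPM, and Khsrp, which binds the loops of some hairpins, from 479 ± 2.04 to 545 ± 10.1 CPM. Ddx17, a helicase of the Microprocessor, was the member that fell, from 49.5 ± 0.0732 to 35.5 ± 0.624 CPM (-0.48, SE 0.09, edgeR adjusted p = 6.11e-06), with exon shared with an opposite-strand gene. These values are means ± SD with n = 2 libraries in each group, as are those that follow.

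In the list of export, dicing and Argonaute loading, 7 of 12 tested genes rose and 1 fell (median 0.15). The share called was 66.7%, beside 24.5% of all tested genes, or 34.3% of those averaging 10 CPM or more. The list holds 8 chaperones or their partners, known to hold empty Argonaute open for the duplex. Of these Hspa8, Hsp90aa1, Hsp90ab1, Fkbp4 and Dnaja2 rose, Ptges3 (log2 fold change 0.18, edgeR adjusted p = 0.119) and Stip1 (0.03, adjusted p = 0.740) were not called, and Fkbp5, with 2 counts in all, was not tested. They were grouped after their values were seen. Fkbp4, a co-chaperone of HSP90, rose to 325 ± 2.53 CPM from 236 ± 13.1 in control (log2 fold change 0.45, SE 0.04, edgeR adjusted p = 3.73e-26). Of genes picked out after their values were seen, Tarbp2, the partner of Dicer, rose from 75.6 ± 1.77 to 90.8 ± 0.833 CPM (0.27, SE 0.07, edgeR adjusted p = 0.000676). Ran, whose GTP-bound form lets Xpo5 hold its cargo, rose by 0.11 (SE 0.02) on the log2 scale. Adar, an enzyme that edits double-stranded RNA, fell from 11.9 ± 1.45 to 7.27 ± 0.851 CPM (-0.68, SE 0.20, edgeR adjusted p = 0.0051).

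Of the genes that tail, trim or destroy microRNAs or their hairpins, 9 of 15 had enough counts to be tested. Of the tested genes 1 rose and 1 fell (median 0.00), so that 22.2% were called, beside 24.5% of all tested genes. Zswim8, the adaptor of a ubiquitin ligase that destroys Argonaute during target-directed microRNA decay, rose to 186 ± 2.01 CPM from 152 ± 1.91 in control (log2 fold change 0.29, SE 0.05, edgeR adjusted p = 1.99e-07). Tent2, which adds nucleotides to microRNA ends, fell from 58.4 ± 2.27 to 44.9 ± 7.95 CPM (-0.37, SE 0.09, edgeR adjusted p = 0.00015). Tsn and Parn, next by p, were not called (0.40 and -0.39). Lin28b, the block on let-7 hairpins, had 0 counts in all 4 libraries, and Lin28a had 1.

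Effectors that TNRC6 proteins recruit had 7 of 26 tested genes higher and 2 lower (median 0.08). The share called was 34.6%, beside 24.5% of all tested genes, or 34.3% of those averaging 10 CPM or more. Cnot1, the scaffold of the CCR4-NOT deadenylase, rose to 685 ± 19.1 CPM from 514 ± 5.29 in control (log2 fold change 0.41, SE 0.03, edgeR adjusted p = 1.3e-35). Lsm14a, a protein of processing bodies, rose from 91.8 ± 0.976 to 135 ± 1.15 CPM (0.55, SE 0.06). Mov10, a helicase bound to Argonaute, fell from 19.5 ± 0.327 to 10.0 ± 2.07 CPM (-0.95, SE 0.16, edgeR adjusted p = 1.29e-07), and the decapping activator Patl1 fell from 172 ± 7.98 to 149 ± 2.02 CPM.

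Among regulators of Argonaute and RNA-binding proteins that act beside it, 5 of 17 tested genes rose and 1 fell (median 0.02). The share called was 35.3%, beside 24.5% of all tested genes, or 34.3% of those averaging 10 CPM or more. Mapkapk2, a kinase of Ago2, rose to 263 ± 14.0 CPM from 214 ± 0.753 in control (log2 fold change 0.30, SE 0.04). Ajuba, a LIM protein that bridges Argonaute and TNRC6, rose from 88.8 ± 5.00 to 117 ± 1.83 CPM (0.39, SE 0.06). Of the fragile X family, Fxr1 fell from 421 ± 7.42 to 343 ± 15.2 CPM, Fxr2 rose from 78.6 ± 2.69 to 96.4 ± 1.88 CPM, and Fmr1 was not called (log2 fold change 0.00, edgeR adjusted p = 0.975).

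**Figure D5:**
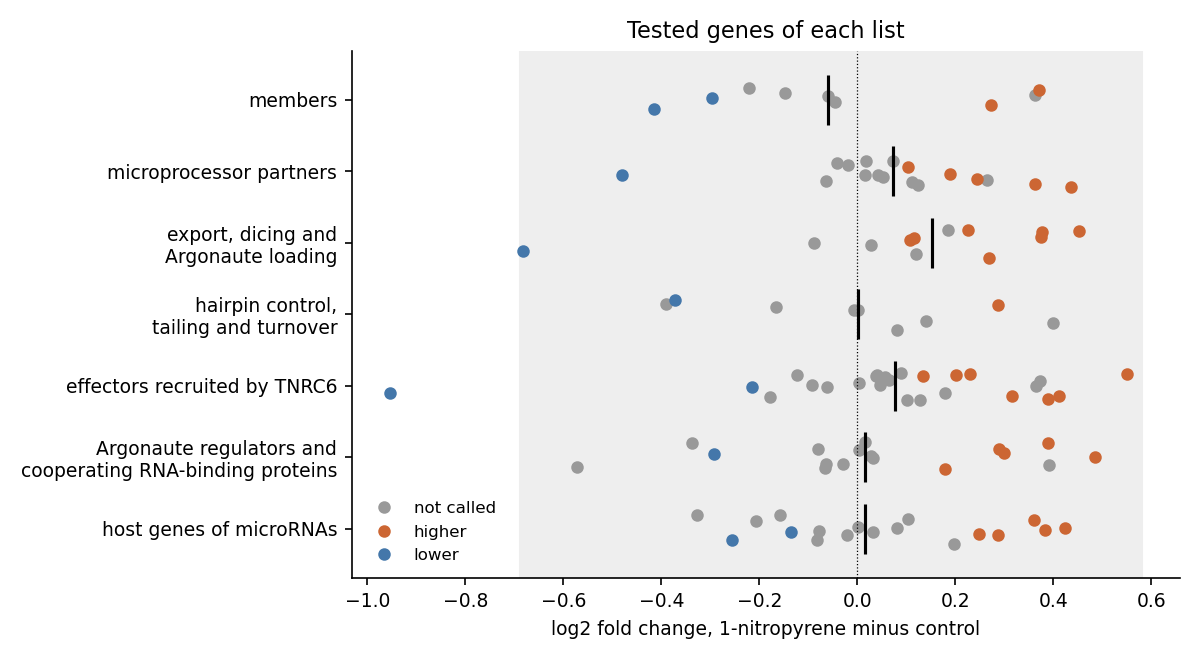
Log2 fold change (1-nitropyrene minus control) of each tested gene in the 10-gene set and the 6 lists, coloured by call, with a black line at each list's median; the grey band spans the 5th to 95th percentile of all tested genes (-0.689 to 0.581). Most called genes outside the 10-gene set lie to the right of 0, and Mov10 at -0.95 lies outside the band.

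The output of the pathway was not measured. Of 1174 rows with a Mir symbol, 16 had a count and 3 had at least 100 in all (Mir762 with 678, Mir6340 with 154 and Mir6236 with 131). Of these, which were named after their counts were seen, Mir6236 fell, from 65 and 38 counts to 19 and 9 (edgeR adjusted p = 3.89e-06). Genes that carry microRNAs within their transcripts were measured better, with 18 of 33 listed host genes tested, of which 5 rose and 2 fell (median log2 fold change 0.02). The share called was 38.9%, beside 24.5% of all tested genes, or 34.3% of those averaging 10 CPM or more. Huwe1, a ubiquitin ligase gene, rose from 733 ± 13.8 to 893 ± 12.6 CPM (0.29, SE 0.03), Nfyc, a subunit of NF-Y, from 61.2 ± 2.87 to 78.1 ± 2.18 CPM (0.36, SE 0.07), and Wwp2, another ubiquitin ligase gene, from 44.1 ± 3.08 to 57.0 ± 5.47 CPM (0.38, SE 0.09). Smc4, a condensin subunit, fell from 104 ± 3.67 to 87.1 ± 1.30 CPM (-0.26, SE 0.06). A host gene's mRNA level is not the level of its microRNA.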

How the data were processed

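Polyadenylated RNA of 4 libraries was made into stranded libraries, per the labels' protocols. The authors deposited whole-number counts of reads for each gene, without normalization. HISAT2 2.1.0, featureCounts 1.6.3, DESeq2 and the build GRCm38 (mm10) are named in the submitters' processing notes, without their roles. How strand and multi-mapping reads were handled in counting is not given in the sources, so reads of similar or overlapping genes may be misassigned.

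Of 53465 identifiers 53360 matched GENCODE M21 (GRCm38), which gave symbols and exon lengths. Counts were analysed with edgeR 4.0.16 in R 4.3.3: filterByExpr (7738 genes kept), TMM factors (0.989 to 1.01), and a quasi-likelihood fit (legacy set to FALSE) of treatment on all 4 libraries. The dispersion was 0.000546 and the prior degrees of freedom were infinite. Standard errors are the absolute log2 fold change over the square root of F. Intervals are at 95%, without adjustment for the number of tests, and those of differences between genes treat the genes' errors as independent. The fit was tested on simulated data.

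The alternatives were other scaling factors, filters and thresholds, DESeq2 1.42.0, limma-voom (limma 3.58.1), other quasi-likelihood settings and each library left out. When a group is left with 1 library, that library is assumed to vary like the other group. Named genes are the 10 members, in each list up to 4 genes of smallest p, and the 3 genes nearest in pattern to the member with the smallest p; exceptions are stated. The members and lists were chosen with earlier results of these data known.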

Additional observations from a re-analysis of the deposited data

How the results depend on the processing

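Tnrc6c was called under all 17 alternative settings, Tnrc6b under 16, Dgcr8 under 14 and Drosha under 12, each with an unchanged direction. DESeq2 called 0 members higher (Drosha and Dgcr8 had unadjusted p-values under 0.05) and 15 pathway genes higher, with 517 genes higher and 319 lower in all. In edgeR's test against a 1.2-fold change 0 members were higher and 1 lower, with 7 pathway genes higher and 2 lower, and 239 and 214 of all genes. Against 870 lower genes, there were 532 without a filter on low counts and 568 at an adjusted p under 0.01. With each library left out, 1 to 2 members were higher and 2 lower, 15 to 25 pathway genes higher, 690 to 861 of all genes higher and 511 to 647 lower. The log2 difference between Tnrc6c and Tnrc6b ranged from -0.17 to -0.060 with each library left out, that of Ago3 and Ago2 from -0.59 to 0.14, that of Xpo5 and Drosha (-0.01) from -0.16 to 0.27, and the change of Ago3 from -0.66 to 0.12. Without 1-nitropyrene replicate 2, Ago3 turned from -0.22 to 0.12 and its difference from Ago2 from -0.17 to 0.14. The difference of Xpo5 and Drosha, close to 0, changed sign to 0.022 in DESeq2, 0.0060 in limma-voom and 0.0069 in the older quasi-likelihood method. The Ago2 share of the Argonautes in control, 84.0% per exon length, was 90.1% per coding length and 90.0% of raw counts, and the Tnrc6a share of the TNRC6 family, 60.9%, was 53.2%, 66.8% per longest transcript and 54.2% of raw counts. The cause of the lost calls was not tested. A stricter threshold lowers the number of calls by construction, which a fit with fewer libraries need not do. Depth limits Ago3. No paired analysis was possible because the groups share a single replicate number.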
